A study of Homo sapiens with 2 samples.

Results

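Mucins and trefoil factors make up the mucus coat of wet epithelia, and 7 of their genes were examined among the 17249 gene symbols of the count table. They are the transmembrane mucins MUC1 and MUC13, the gel-forming mucins MUC5AC and MUC5B, and the trefoil factors TFF1, TFF2 and TFF3, taken by symbol from a fixed list. The list was made with the values of these same libraries known, so what follows about the 7 genes is a description and no test. The RNA came from 2 samples, 1 in each group, labelled alike as DU145 cells, an epithelial human prostate cancer cell line. The si-P53RRA sample came from cells given 200 pmol of small interfering RNA against the long noncoding RNA P53RRA with Lipofectamine, moved to fresh medium after 4 h and grown for another 48 h. The control is titled only with the name of the line, and the column of its counts is called si-NC, a negative control by that name. What the control cells were given is not stated further, and both samples carry the same treatment text.

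Mucins are large glycoproteins whose serine- and threonine-rich repeats carry dense O-linked sugars. Gel-forming mucins are packed into granules, secreted and cross-linked into mucus, whereas transmembrane mucins stay on the apical surface, where they shield the cell and pass signals through their cytoplasmic tails. Trefoil factors are small secreted peptides, folded by disulfide bonds, that are released together with mucins and take part in the repair of mucosal surfaces. In healthy tissue MUC5AC and TFF1 are typical of the stomach surface, MUC5B of airway, salivary and cervical glands, TFF2 of gastric glands, and TFF3 of intestinal goblet cells. MUC1 is found on most glandular epithelia, the prostate included.

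The control held 16030207 counts and the si-P53RRA sample 11942362, and the targeted transcript LINC00472 had 105 and 6 counts in them. The libraries stood far apart from each other before any mucin is considered. Levels are given in CPM, counts scaled to the size of the library. Among the 13532 genes that reached 1 CPM in at least 1 of the samples, 19.7% were higher by 2-fold or more in the si-P53RRA sample and 23.2% were lower by as much, on the scale of log2(CPM + 0.5). Among epithelial markers, the control had 0 counts of the adhesion gene EPCAM and 2 of CDH1, the E-cadherin gene. The si-P53RRA sample had 50 and 7. The keratin genes KRT18 and KRT8 of the same list had 5870 and 649 counts in the control and 8105 and 2062 in the si-P53RRA sample. The 10 epithelial markers summed to 394 CPM in the control and 2007 CPM in the si-P53RRA sample, with 7 of the 8 that reached 1 CPM at least 2-fold higher. The 8 mesenchymal markers summed to 9717 and 1359 CPM, and 7 of the 8 were at least 2-fold lower. Among prostate genes, HOXB13 had 0 counts in the control and 10004 in the si-P53RRA sample, and SLC45A3 had 64 and 421. CTNNA1, the alpha-catenin gene, in none of the lists and named after its values were seen, had 5835 counts in the control and 0 in the si-P53RRA sample. Whether both samples hold the same cells was not tested, and if they do not, every fold below compares different cells. With 1 library per group, an effect of the small interfering RNA and any other difference between these libraries cannot be told apart, and in bulk RNA fewer cells of a type and less RNA per cell cannot be told apart either. "Higher" and "lower" below compare the sample labelled si-P53RRA with the sample labelled as control, and values in parentheses are 95% intervals for counting error alone.

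The pair of transmembrane mucins, which went in opposite directions, is shown first because promoter sequences were matched for these genes alone. Whether the sequences bear on the directions was not tested. RefSeq promoter sequences (GRCh38.p14, 250 bases before to 50 bases after the start) were matched for 2 of the 7 genes. The capitals mark the motifs searched on both strands. They were the TATA box, written TATAAA, the GC box, written GGGCGG, an E-box with the letters CACCTG, a part of the site read by HNF1 factors with the letters GTTAAT, and the forkhead core, which reads TGTTTAC.
MUC1 promoter, chr1:155192866-155193165, minus strand: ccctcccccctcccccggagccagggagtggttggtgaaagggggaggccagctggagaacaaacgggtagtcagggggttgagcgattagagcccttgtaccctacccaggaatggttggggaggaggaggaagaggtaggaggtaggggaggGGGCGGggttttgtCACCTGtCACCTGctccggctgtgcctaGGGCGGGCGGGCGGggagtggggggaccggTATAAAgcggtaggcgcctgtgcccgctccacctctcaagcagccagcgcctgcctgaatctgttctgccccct
MUC13 promoter, chr3:124934702-124935001, minus strand: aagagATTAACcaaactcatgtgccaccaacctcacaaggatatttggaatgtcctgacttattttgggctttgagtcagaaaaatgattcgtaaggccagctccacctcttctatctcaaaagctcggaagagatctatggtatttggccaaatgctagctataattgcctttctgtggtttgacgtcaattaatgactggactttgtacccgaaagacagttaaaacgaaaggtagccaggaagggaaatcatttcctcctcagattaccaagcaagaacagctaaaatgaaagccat
The MUC1 window was 65.7% G and C and the MUC13 window 41.0%, against a median of 58.3% over 27305 promoters of the same length. The MUC1 window held the TATA box, starting 24 bases before the start site. It also held 4 copies of the GC box, of which those nearest the start overlap, and 2 copies of the E-box. The TATA box letters were found in 12.0% of all promoters, those of the GC box in 44.6% and those of the E-box in 20.6%. The MUC13 window held none of these and had 1 copy of the HNF1 letters on the opposite strand near its far end, a motif found in 6.89% of promoters. The forkhead core was in neither window and in 3.41% of all promoters. These matches describe letters only and were not tied to binding of any factor.

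MUC1, the surface mucin with a cytoplasmic tail that is phosphorylated by receptor and SRC-family kinases, was the only gene of the 7 with more than 1 count in the control. It had 406 counts there, or 24.2 CPM (21.9 to 26.7), and 46 counts, or 4.03 CPM (2.95 to 5.38), in the si-P53RRA sample. MUC1 was thus 6.00-fold lower (4.42 to 8.33), with a log2 difference of −2.45. The counting intervals did not overlap. MUC13, a transmembrane mucin of the intestine and stomach that also signals through its tail, had 1 count in the control and 129 in the other. Its level was 0.0596 CPM (0.00151 to 0.332) against 11.3 CPM (9.44 to 13.4), a ratio of 190 with an interval from 33.5 to 7552 that a control count of 1 leaves very wide. The summed level of MUC1 and MUC13 was 24.3 CPM in the control and 15.3 CPM in the si-P53RRA sample.

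The gel-forming mucins were read only in the si-P53RRA sample. MUC5B, the mucin that airway clearance depends on in mice, had 0 counts in the control and 1848 in the other, or 162 CPM (155 to 170). Set against a floor of 3 counts in the control, which is 0.179 CPM, MUC5B was at least 906-fold higher. MUC5AC, the main mucin of the stomach surface and of airway goblet cells, had 0 and 416 counts, or 36.5 CPM (33.0 to 40.1) in the si-P53RRA sample, at least 204-fold higher. The exact interval of a count of 0 reaches 3.69 counts, or 0.220 CPM in the control, so the folds against that interval end would be 736 for MUC5B and 165 for MUC5AC. Within the si-P53RRA sample, counts per transcript length of MUC5B were 4.33 times those of MUC5AC (3.89 to 4.82) with the longest transcripts as length. With the median length of the coding transcripts they were 8.44 times those of MUC5AC. That median came from only 2 transcripts of MUC5B, of 17911 and 461 bases, and from 1 of MUC5AC, of 17448 bases. The genes are neighbours of similar length, and 2.30% of the 50-base windows of MUC5B were also found in MUC5AC or in the antisense gene MUC5B-AS1, while 0.379% of those of MUC5AC were found in MUC5B. Windows repeated within the same transcript made up 29.2% for MUC5B, 21.4% for MUC5AC and 42.4% for MUC1, and the labels do not say how reads from repeats were counted. MUC13 and the trefoil factors had no repeated or shared window.

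The trefoil factors were likewise at 0 in the control. TFF1, a peptide with 1 trefoil domain known as an oestrogen-responsive gene in breast cancer cells, had 754 counts in the si-P53RRA sample, or 66.1 CPM (61.5 to 71.0), and was at least 370-fold higher. TFF3, the goblet cell trefoil factor, which has also been described in prostate tumours, had 541 counts, or 47.4 CPM (43.5 to 51.6), and was at least 265-fold higher. TFF2, which carries 2 trefoil domains, had 380 counts, or 33.3 CPM (30.0 to 36.8), and was at least 186-fold higher. In the si-P53RRA sample all 3 were well above the counting floor, and in the deeper control none had a count. Against the interval end of 0 counts these folds would be 300 for TFF1, 215 for TFF3 and 151 for TFF2.

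**Figure D1:**
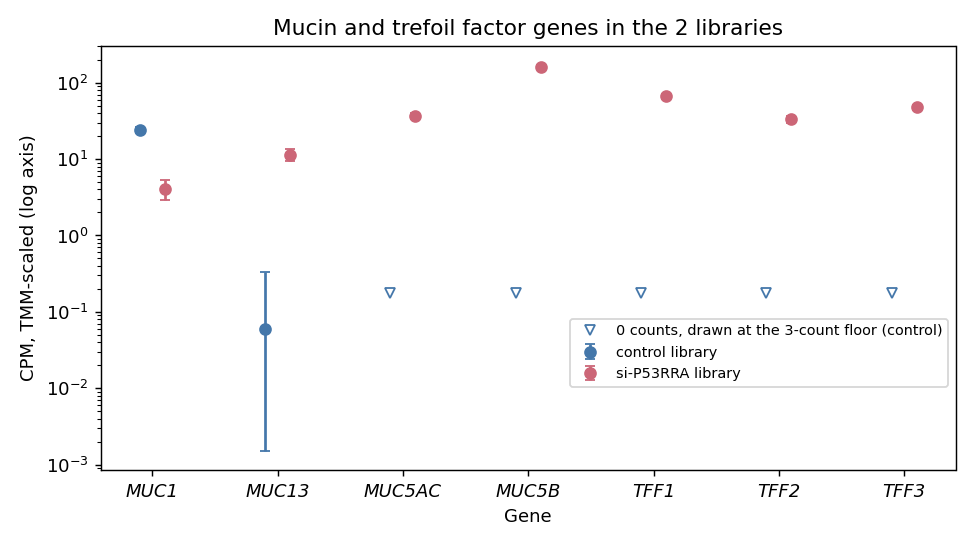
Level of each of the 7 genes in CPM, scaled by the trimmed mean of M-values, on a log axis, in the control (blue) and the si-P53RRA sample (red), 1 library each. Bars are exact Poisson 95% intervals of the counts, hidden by the point where narrow, and open triangles mark 0 counts drawn at the floor of 3 counts (0.179 CPM). MUC1 is lower in the si-P53RRA sample, at 4.03 against 24.2 CPM, and the other 6 genes are higher.

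Taken over the 7 genes, all of which reached 1 CPM in a library, 6 were at least 2-fold higher and 1 was lower. Over all 13532 genes these shares were 19.7% and 23.2%, and nothing is read from the comparison because the genes were picked on this contrast. Their median log2 difference was 6.21, or 5.77 with the counts of 0 set at 3, beside −0.06 for all genes tested. A count of 0 in the control with at least 100 counts in the si-P53RRA sample was found for 102 genes, or 0.754% of those tested, and 5 of these were MUC5AC, MUC5B, TFF1, TFF2 and TFF3. The log2 difference of MUC5B exceeded that of 99.9% of genes tested and that of MUC13 98.1%, while 7.77% of genes had a lower value than MUC1. The 7 genes together had 407 counts in the control and 4114 in the si-P53RRA sample, or 24.3 CPM (22.0 to 26.7) and 361 CPM (350 to 372). In the control MUC1 gave 406 of the 407 counts. In the si-P53RRA sample the gel-forming mucins gave 55.0% of the counts, the trefoil factors 40.7% and the transmembrane mucins 4.25%.

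**Figure D2:**
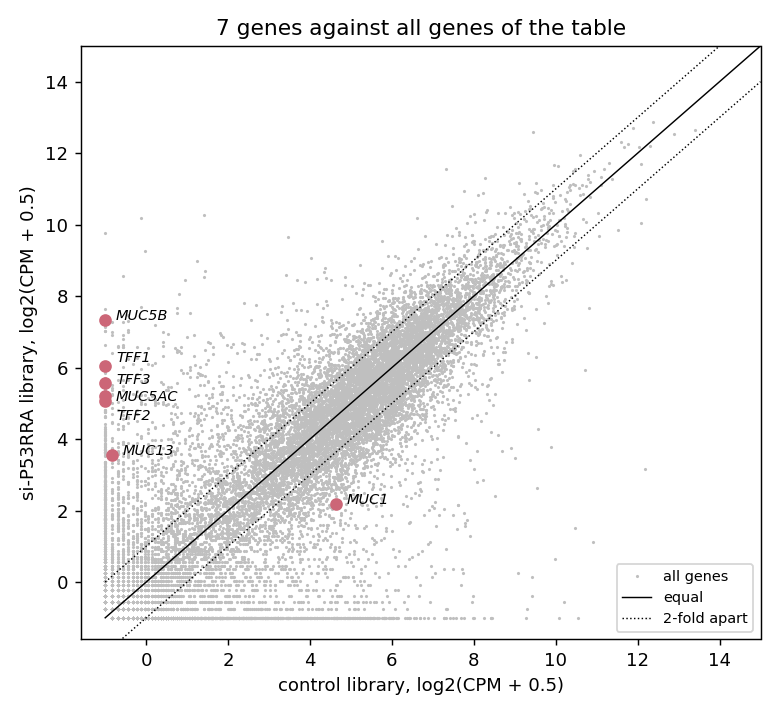
Every gene of the table as log2(CPM + 0.5) in the control (horizontal) and the si-P53RRA sample (vertical), with the 7 mucin and trefoil genes in red, the line of equal levels and dotted lines 2-fold apart. The 5 genes at 0 counts in the control lie on the left edge, MUC13 lies beside them, and MUC1 lies below the lower dotted line.

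Counts grow with transcript length, so the order of levels in the si-P53RRA sample was taken per kilobase of the longest GENCODE 29 transcript. TFF1 led with 120 CPM per kb, followed by TFF2 with 45.2 and TFF3 with 42.8 CPM per kb. TFF2 and TFF3 did not differ beyond counting error on this length, with a ratio of TFF3 to TFF2 of 0.946 (0.828 to 1.08), which became 2.32 with the median coding length. MUC5B followed with 9.04 CPM per kb, although it had the most counts of the 7, and then MUC13 with 3.93, MUC5AC with 2.09 and MUC1 with 0.967 CPM per kb. TFF1 was 13.3 times MUC5B on this scale (12.2 to 14.4), and MUC13 was 4.06 times MUC1 (2.88 to 5.82), ratios that became 6.80 and 1.54 with the median coding length. TFF1 exceeded 95.8% of the genes detected in that library, MUC5B 62.7% and MUC1 27.7%, whereas in the control MUC1, at 5.80 CPM per kb, exceeded 54.7% of the genes detected there. The order depended in part on the length used. The median coding length of MUC5B came from only 2 transcripts, of 17911 and 461 bases. With the median length of the coding transcripts, TFF1 stayed highest at 120 CPM per kb, TFF3 came next at 105, above TFF2 at 45.2, MUC5B was at 17.6, MUC13 at 6.52, and MUC1, at 4.24, was above MUC5AC at 2.09 CPM per kb.

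**Figure D3:**
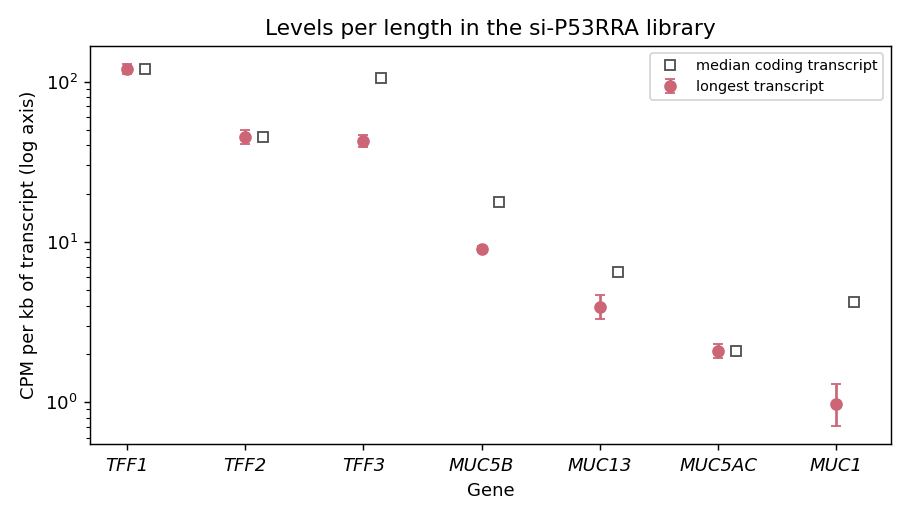
Level of each gene in the si-P53RRA sample in CPM per kilobase on a log axis, with the longest transcript as length (red circles, bars are exact Poisson 95% intervals) or the median coding transcript (open squares). The 3 trefoil factors are above the 4 mucins with either length, from 42.8 to 120 CPM per kb against at most 17.6.

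The genes with the closest pair of levels, over these 2 libraries only, were found by the distance between log2(CPM + 0.5) values. MUC5B was closest to GLB1L2 (0 and 1846 counts), MAGEA6 (0 and 1794) and HAPLN1 (0 and 1960), at distances of 0.0016, 0.043 and 0.085. MUC5AC was closest to RIPK4 (0 and 419 counts), DSC3 (0 and 422) and JAKMIP1 (0 and 409). TFF1 was closest to NETO2 (0 and 761 counts), PRAC1 (0 and 767) and HSD17B2 (0 and 724). Those nearest to TFF2 were PRAME, TGFA and ASB9, and those nearest to TFF3 were DUSP9, B3GNT3 and C1orf106, all at 0 in the control and between 370 and 567 counts in the other. MUC13 was closest to FABP4 (1 and 138 counts), ZG16B (1 and 120) and KCNN3 (1 and 118). MUC1 was closest to PROS1 (399 and 47 counts), CASP8AP2 (417 and 48) and COMMD8 (388 and 45). With 2 libraries such likeness says only that the levels were similar.

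MUC5AC and MUC5B stand next to each other on chromosome 11, in a row with the gel-forming mucin genes MUC6 and MUC2. In that row MUC6 had 0 and 2 counts and MUC2 0 and 6 counts, so neither reached 1 CPM, beside 416 for MUC5AC and 1848 for MUC5B in the si-P53RRA sample. The flanking gene AP2A2, an adaptor of clathrin-coated vesicles, had 1785 and 1260 counts and a log2 difference of 0.05, and TOLLIP, a regulator of Toll-like receptor signalling on the other side, had 1203 and 964 counts and a log2 difference of 0.24. BRSK2, a kinase gene beyond TOLLIP, had 3 and 111 counts and was 54.4-fold higher (18.1 to 268). Of the 6 protein-coding genes on each side of the mucin row, together with MUC6 and MUC2, 9 of 14 reached 1 CPM. Of these 9, 4 were higher by 2-fold or more and none was lower by as much. Over all genes tested the shares were 19.7% and 23.2%, the background for each tally of neighbours and lists below.

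The 3 trefoil genes lie side by side on chromosome 21 in the order TFF3, TFF2 and TFF1. On the TFF1 side, TMPRSS3, UBASH3A, RSPH1 and SLC37A1 were all at 0 in the control and had 5, 3, 17 and 20 counts in the other, far below the 380 to 754 counts of the trefoil genes. RSPH1, a cilium gene, was at least 8.34-fold higher and SLC37A1, a sugar-phosphate transporter gene, at least 9.81-fold higher. On the other side the nearest genes measured were ZBTB21, C2CD2 and PRDM15, with log2 differences of −0.47, 0.77 and 0.73, and past them RIPK4, a kinase gene of epithelia, with 0 and 419 counts. Of 12 neighbours, 7 reached 1 CPM, 4 of them higher by 2-fold or more and none lower by as much.

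Around MUC1 on chromosome 1, the genes on either side of it were lower as MUC1 was. TRIM46, a gene of neuronal axons, had 83 and 7 counts, 8.06-fold lower (3.74 to 20.7), and THBS3, a thrombospondin gene, had 385 and 62 counts and was 4.22-fold lower (3.22 to 5.61). KRTCAP2, a subunit of the oligosaccharyltransferase, was 2.15-fold higher (1.98 to 2.34), which fell under 2-fold with total-count scaling, and the neighbours MTX1, DPM3 and SCAMP3 had log2 differences of 0.64, 0.56 and 0.83. Of 12 neighbours, 11 reached 1 CPM, 2 of them higher and 2 lower by 2-fold or more. MUC13 on chromosome 3 went against its surroundings. HEG1, a gene of vascular development, had 3787 and 163 counts and was 15.8-fold lower (13.5 to 18.6), SLC12A8 had 663 and 1 counts, 451-fold lower (80.6 to 17831), and the integrin gene ITGB5 had 3903 and 983 counts and was 2.70-fold lower (2.52 to 2.90). Of 12 neighbours of MUC13, 10 reached 1 CPM, 8 of them lower and 1 higher by 2-fold or more.

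**Figure D4:**
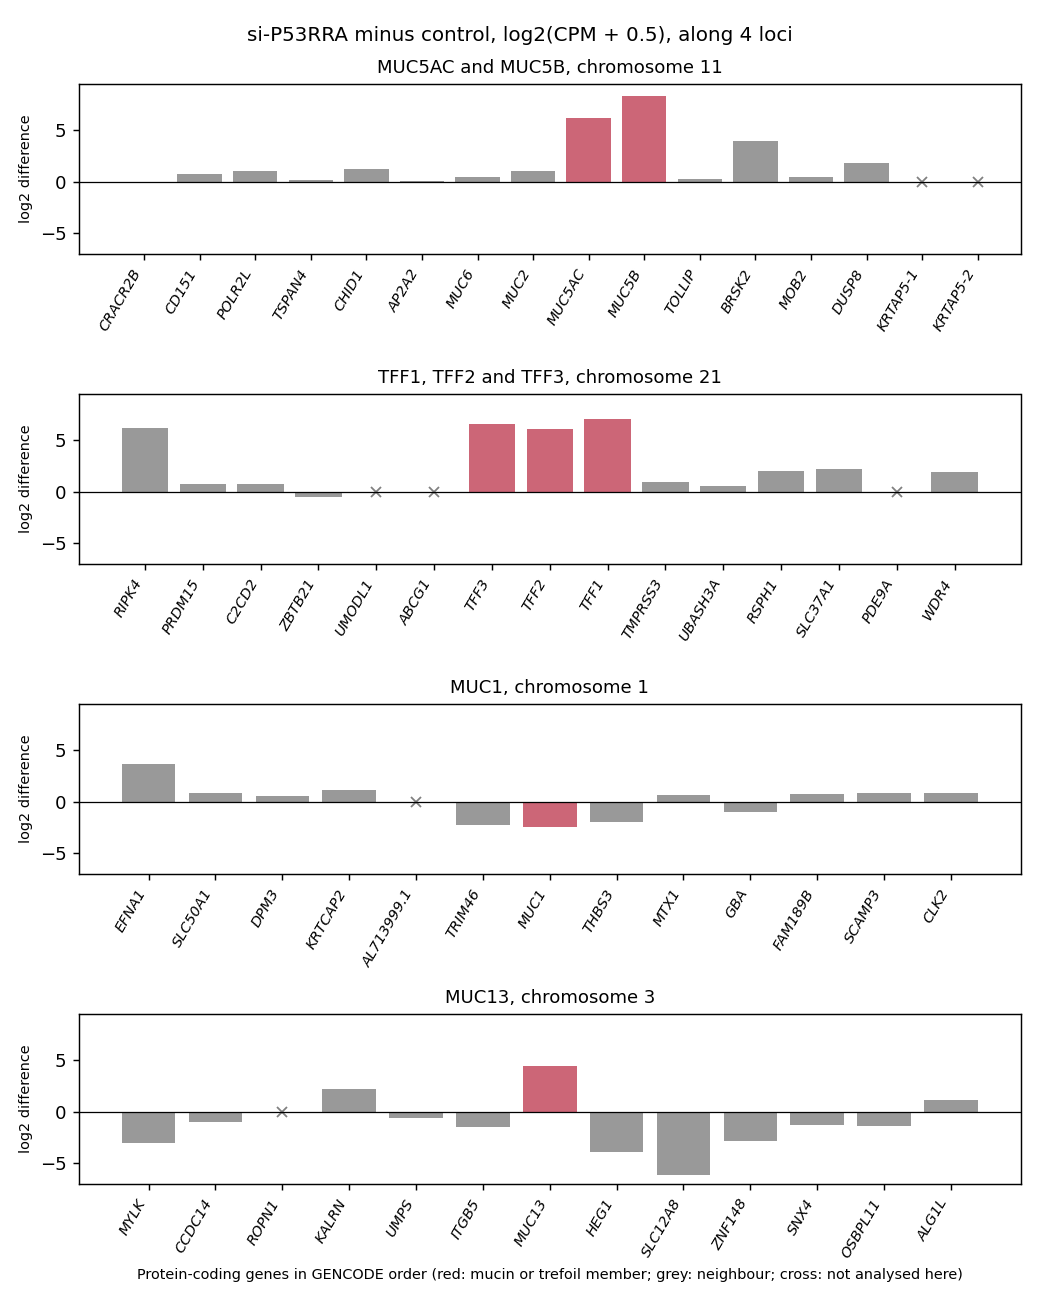
Difference in log2(CPM + 0.5), si-P53RRA minus control, for the protein-coding genes in GENCODE order around the 7 genes, in 4 panels, with mucin and trefoil genes in red, neighbours in grey (genes under 1 CPM included) and crosses for genes not analysed here. MUC5AC and MUC5B stand above AP2A2 (0.05) and TOLLIP (0.24), and MUC13 (4.40) points up between ITGB5 (−1.43) and HEG1 (−3.94).

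Few other mucin genes were listed in the count table. Measured in this text means listed there, and why other symbols are absent is not known. Of 10 further transmembrane mucins, 3 were measured and none reached 1 CPM. These were MUC12 with 5 and 4 counts, MUC20 with 3 and 1, and MUC22 with 1 and 0. Of 6 further secreted mucins and related proteins, 3 were measured, and OVGP1, the oviduct glycoprotein also called mucin 9, was the 1 that reached 1 CPM, with 9 and 138 counts, 22.6-fold higher (11.5 to 50.4). Of the mucin-like surface proteins, MCAM, an adhesion molecule of endothelium and melanoma, had 112 and 0 counts and was at least 25.4-fold lower, while the sialomucin CD164 had a log2 difference of −0.53.

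Genes for the sugars that mucins carry differed in both directions. The GALNT enzymes attach the first O-linked sugar, and of 13 that reached 1 CPM, 4 were higher and 5 lower by 2-fold or more, around a median log2 difference of 0.55. GALNT6 had 16 and 1408 counts and was 129-fold higher (79.4 to 227), and GALNT18 was 5.86-fold higher (4.97 to 6.94). GALNT10 was 4.08-fold lower (3.70 to 4.51), and GALNT16 had 109 and 1 counts, 74.1-fold lower (13.0 to 2954). Of 8 genes that extend these sugars, 3 were higher and 2 lower by 2-fold or more, around a median of 0.05. B3GNT3, which lengthens core 1 glycans, had 0 and 504 counts and was at least 247-fold higher, and ST3GAL1, which caps core 1 with sialic acid, had 266 and 6067 counts and was 33.5-fold higher (29.7 to 38.1). C1GALT1, the core 1 synthase, was 3.40-fold lower (2.73 to 4.27), and GCNT1, which makes the core 2 branch, 5.48-fold lower (3.74 to 8.31).

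Genes for the folding and release of mucus were also compared. AGR2, a disulfide isomerase of the endoplasmic reticulum that intestinal mucin needs in mice, had 0 counts in the control and 1475 in the si-P53RRA sample, and was at least 723-fold higher. ZG16B, a secreted lectin-like protein, had 1 and 120 counts, a ratio of 176 (31.1 to 7029). Of 9 mucus partners 4 were measured, and these 2 reached 1 CPM. The others were FCGBP, a mucus protein linked to gel-forming mucins, with 0 and 9 counts, and PIGR, the receptor that carries polymeric antibodies into secretions, with 2 and 0. Of 8 genes of granule secretion, 3 were higher and 1 lower by 2-fold or more, around a median of 0.02. RAB3D, a GTPase of secretory granules, was 37.5-fold higher (26.1 to 56.0), STXBP2, a syntaxin-binding protein of granule fusion, 6.55-fold higher (5.77 to 7.44) and the calcium sensor SYT7 2.75-fold higher (2.42 to 3.12). RAB27A, another GTPase of granule docking, was 5.42-fold lower (4.26 to 6.99).

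Among 12 transcription factors known to act on mucin, trefoil or secretory genes, 5 were higher and 2 lower by 2-fold or more, around a median of 0.93. The forkhead gene FOXA1 had 91 and 1842 counts and was 29.8-fold higher (24.1 to 37.2), and FOXA2 had 0 and 137 counts and was at least 67.2-fold higher. The epithelial ETS factors ELF3 (2 and 569 counts) and EHF (0 and 85 counts) had a ratio of 418 (115 to 3464) and a bound of at least 41.7-fold higher. SPDEF, the ETS factor of goblet cells, named after its values were seen, had 0 and 30 counts. ESR1, the oestrogen receptor gene, also named after its values were seen, had 99 and 1 counts. Its relation to TFF1 was not tested. The genes FOXA3 (4 and 1 counts) and GFI1 (3 and 6 counts) did not reach 1 CPM.

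Receptors and partners of mucins and trefoil factors were divided. Of 10 that reached 1 CPM, 3 were higher and 5 lower by 2-fold or more, around a median of −0.80. The receptor tyrosine kinases EGFR and ERBB2, which bind transmembrane mucins at the membrane, were 4.36-fold (3.85 to 4.95) and 5.10-fold (4.42 to 5.92) lower. The chemokine receptor CXCR4, proposed as a receptor for TFF2, had 0 and 70 counts and was at least 34.3-fold higher, whereas ACKR3, its atypical relative, had 127 and 3 counts and was 28.8-fold lower (9.63 to 141). Of 5 proteases with roles in shedding membrane proteins such as MUC1, 4 were lower and none was at least 2-fold higher. MMP14 was 19.2-fold lower (16.7 to 22.2), ADAM9 7.19-fold lower (6.56 to 7.89), ADAM10 4.62-fold lower (4.08 to 5.26) and ADAM17 2.15-fold lower (1.83 to 2.54). Over the 14 lists of pathway and neighbour genes, 25 of 77 genes tested were at least 2-fold higher and 25 lower. Over all genes tested, 19.7% were higher and 23.2% lower by as much.

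**Figure D5:**
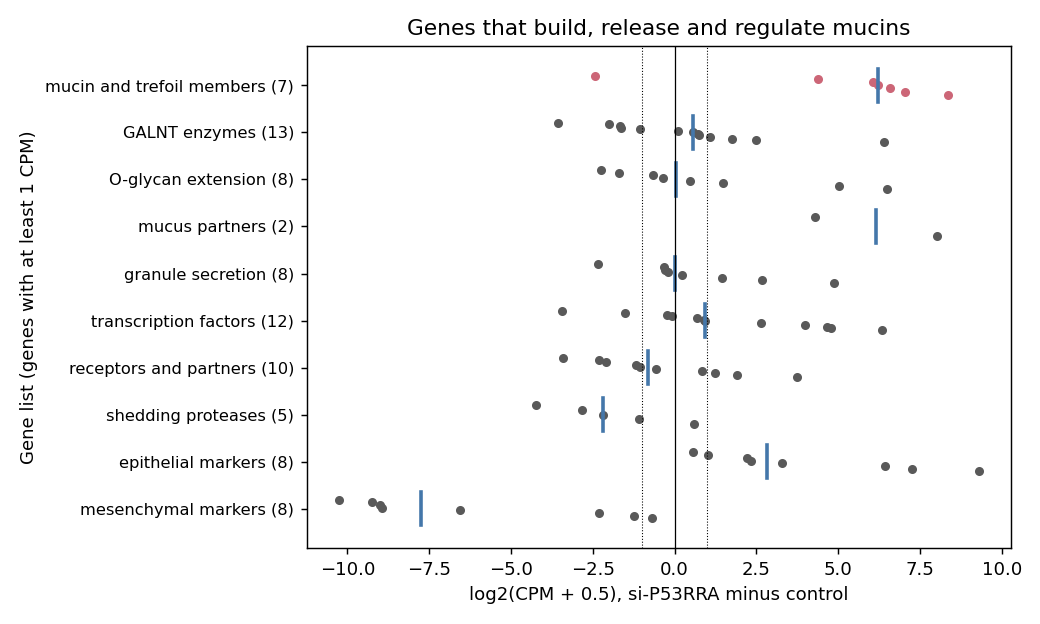
Difference in log2(CPM + 0.5), si-P53RRA minus control, of genes that reached 1 CPM, 1 point per gene, in the 7 mucin and trefoil genes (red) and in lists of related genes and markers (grey), with medians as blue bars and dotted lines at 2-fold. The medians are 6.21 for the 7 genes, 0.55 for the GALNT enzymes and −2.19 for the shedding proteases.

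Tissues in which these mucins are abundant were checked by their markers. Of 8 intestinal markers, 4 were measured and 1 reached 1 CPM, GPA33 with 0 and 33 counts, while LGALS4 had 0 and 1, KRT20 0 and 3 and CDH17 6 and 0 counts. The list summed to 0.358 CPM in the control and 3.24 CPM in the other. Of 6 gastric markers, 4 were measured. VSIG1 (0 and 64 counts) and ANXA10 (120 and 368) were higher, and GKN1 (6 and 0) and CLDN18 (4 and 0) were near 0. The gastric list summed to 7.75 and 37.9 CPM. Of 5 airway markers, only BPIFB1 was measured, with 0 and 1 counts, and it did not reach 1 CPM. Of 4 leukocyte markers, 3 were measured, with CD68 at 667 and 889 counts, LYZ at 1 and 16 and PTPRC at 2 and 0, and the list summed to 39.9 and 79.3 CPM. The epithelial and mesenchymal sums moved with the 6 higher genes and with MUC1 respectively, and their part in these differences was not tested.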

How the data were processed

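Poly(A)-selected RNA of cells labelled DU145 was sequenced after random-hexamer priming, per the labels' protocols. The authors deposited raw counts, whole numbers for each gene symbol in 2 columns, as judged from the values. Reads were mapped to hg19, per the submitters' processing notes. The aligner, counter, annotation and strandedness (not given in the sources used here) are unknown, so sense and antisense reads cannot be told apart. The column named si-NC was taken as the control.

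Libraries were scaled with the TMM method of edgeR 4.0.16 (R 4.3.3), with factors of 1.05 (control) and 0.955. Log2 differences used CPM + 0.5 over genes reaching 1 CPM in a library. Printed folds are ratios of CPM without the pseudocount, with exact conditional binomial 95% intervals. Against 0 counts, a floor of 3 counts per library was used. The labels mention no molecular identifiers, so intervals and floors describe counting error alone. With 1 library per group no p-value was computed. The procedure was run on simulated counts with counting error alone and known folds in a small share of genes. Many more genes differed between these 2 libraries, so that run does not cover their setting.

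The 7 genes, the 21 gene lists and the naming rule (at most 4 genes per list, by size of change) were chosen with earlier results of these data known. Lengths and gene order came from GENCODE 29, on a newer build than the authors', so no coordinates of it are printed; 94.6% of genes tested had a length. The window of 6 neighbours on each side was chosen after seeing the data. Alternatives were other scalings (median ratio from DESeq2 1.42.0), filters, pseudocounts and fold sizes. Some marker genes are not reported here.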

Additional observations from a re-analysis of the deposited data

How the results depend on the processing

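The tally of 6 genes higher and 1 lower was the same under all 11 alternatives tried: scaling by total counts, upper quartile or median ratio, no filter, at least 5 CPM, pseudocounts of 0.1 and 2.5 CPM, 1.5-fold and 4-fold sizes, an interval that excludes 1, and, added after the data were seen, genes at 0 set at 3 counts. The size of the log2 differences moved with the pseudocount, from 6.04 to 10.7 for MUC5B, 2.43 to 6.16 for MUC13 and −2.56 to −2.03 for MUC1. At 4-fold, 1129 of all genes were higher and 1400 lower, against 2667 and 3135 at 2-fold, and 15 rather than 25 pathway genes were lower; a larger size admits fewer genes by construction. Total-count scaling moved the median of all genes by −0.13 on the log2 scale, and the share of calls that were higher from 46.0% to 40.4%. The medians of 3 lists changed sign between alternatives: granule secretion (−0.11 to 0.22), O-glycan extension (−0.08 to 0.46) and receptors and partners (−0.98 to 0.14). No paired analysis was possible because each group had 1 library. Counts of 0 limit folds to lower bounds.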
